A study of Homo sapiens with 2 samples.

Results

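Messenger RNAs of 7 large cytoskeletal linker and motor proteins (MAP1B, TLN1, PLEC, MYH9, AHNAK, SPTBN1 and DYNC1H1) were examined in the list of regions enriched in RNA recovered with a catenin immunoprecipitation (IP). They were taken by gene symbol, and are 7 of the 1658 symbols with a peak. The symbols were chosen by their high folds and tag counts in this same list, so peaks, tags and folds are given here as a description without a test. Both samples of the series came from MDA-MB-231 cells, a line established from triple-negative breast cancer that grows with mesenchymal features. The sample titles name a B-catenin IP and an input, 1 library each, and no treatment or genotype is given for either. Phenol-alcohol extracted RNA of the IP was sheared to roughly 300 to 500 bp. The values below come from the list made for the IP library, and the input library's own values were not analysed here. RNA abundance in the cell and recovery with the antibody therefore cannot be told apart for any gene.

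Beta-catenin links cadherins at the cell surface to alpha-catenin and through it to actin filaments, and also acts as the transcriptional effector of Wnt signalling. The 7 proteins work around the same structures. Talin (TLN1) joins integrins to actin, nonmuscle myosin IIA (MYH9) pulls on actin filaments, and beta-II spectrin (SPTBN1) forms the mesh under the plasma membrane. Plectin (PLEC) ties intermediate filaments to other filaments and to junctions, MAP1B binds and stabilises microtubules, the dynein heavy chain (DYNC1H1) is the motor that moves cargo towards microtubule minus ends, and AHNAK is a giant scaffold at the cell periphery. An RNA IP reports RNA that came down with the antibody, either bound to the target, bound to its partners, or carried along with nascent protein or background, and does not separate these routes.

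A peak here is a stretch of a transcript, positioned in nucleotides (nt) from the transcript's first base, with the number of tags (sequenced fragments) in it and a fold enrichment given by the authors. What that fold is relative to was not stated in the labels or the file. Each gene is represented by its listed transcript with the most tags. On these transcripts the 7 genes had 19 peaks with 6575 tags over 67303 nt. That was 4.92% (exact binomial interval 4.80 to 5.03%) of the 133739 tags of all 1658 genes, on 2.22% of the nucleotides in peaks. Both totals count some tags and nucleotides more than once, since overlapping or near-identical genes were listed under several symbols, and the intervals do not cover this. Among markers of the labelled line, peaks were listed for 3 of 8 mesenchymal and basal ones (FN1, EGFR and ZEB1), against 0 of 8 luminal epithelial and 0 of 4 blood markers. The other 5 mesenchymal and basal markers (VIM, CD44, CAV1, AXL and SPARC) had none listed, and 8.11% of all protein-coding genes had a peak, so counts this small do not separate cell types. Intervals below are exact Poisson or exact binomial 95% intervals and cover counting error only, and with 1 library nothing has a replicate check.

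Between their first and last peaks, the members fell into those read almost without a break and those read in patches. MAP1B, MYH9 and SPTBN1 each carried a single peak of several kilobases, so no break between peaks was possible in them. A single peak was also the usual case elsewhere, in 1133 of the other 1651 genes. AHNAK and DYNC1H1 each carried a pair of peaks that nearly touched, 23 nt apart in AHNAK and 18 nt apart in DYNC1H1. In PLEC and TLN1 the peaks covered 72.1% and 60.3% of the stretch from the first to the last peak. Peaks over 6000 nt were rare in the list: 5 belonged to the 7 genes and 12 to the other 1651. The 7 were picked for high tag counts, which rise with covered length, so nothing is read from these counts. The length of the transcripts is not in the file, so the covered share of a whole transcript was not computed. The stretch from nt 1 to the end of the last peak is the shortest length a transcript can have. Of it, 97.5% lay in peaks in MAP1B, 98.8% in MYH9, 99.9% in AHNAK, 98.4% in SPTBN1 and 98.0% in DYNC1H1, against 66.2% in PLEC and 57.6% in TLN1. Any transcript past the last peak is left out, so these shares are upper bounds on the covered share of the whole transcript.

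**Figure D1:**
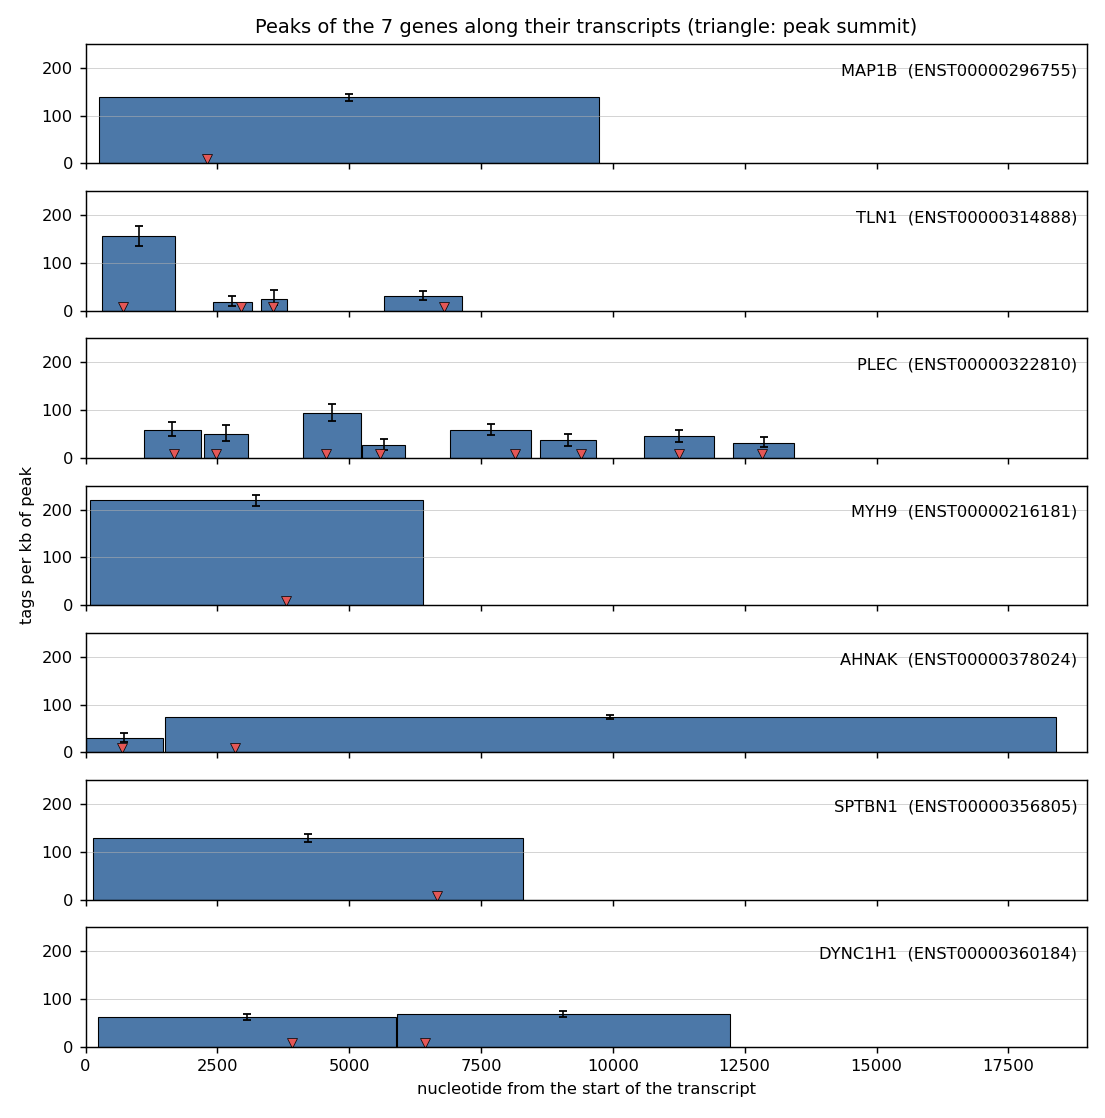
Tags per kb of peak (vertical axis, with Poisson intervals) for the 19 peaks, drawn to scale in nt from the transcript start (horizontal axis). MAP1B, MYH9 and SPTBN1 carry a single block, AHNAK and DYNC1H1 carry 2 blocks that nearly touch, and the density of TLN1 is concentrated in its first peak. Triangles mark summits, and transcript ends are not drawn.

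Among the actin-linked genes, MYH9 had the highest tag density of the 7. Its peak ran from nt 81 to nt 6392 of ENST00000216181 and held 1387 tags (1315 to 1462), or 219.7 tags per kb (208.3 to 231.6). By density it ranked 4 of 1658, by tags 3, and by fold, at 29.19, 38. The summit lay at nt 3807, past the middle of the peak.

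TLN1 had the fewest tags of the 7, ranking 67 of 1658 by tags, but a high fold. Its first peak, nt 320 to 1697 of ENST00000314888, held 214 tags, which was 74.8% (69.4 to 79.8%) of its 286, and stood at a fold of 64.25. The other 3 peaks, at nt 2409 to 3159, 3335 to 3829 and 5652 to 7141, held 14, 12 and 46 tags at folds of 4.62, 5.66 and 6.12. In density the first peak had 155.3 tags per kb (135.2 to 177.6) and was 5.03 times the next densest, the last, at 30.87 (22.6 to 41.2). The rank of TLN1 by fold, 2 of 1658, thus belongs to the 5' stretch of its transcript. Its 3 weak peaks had scores from 30.1 to 47.6, near the minimum of 30 in the list, and all fell away at a score of at least 50.

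SPTBN1 had a single peak on each of 3 listed transcripts. On ENST00000356805 it ran from nt 134 to 8293 with 1052 tags (989.4 to 1118), 128.9 tags per kb and a fold of 27.32. On ENST00000615901 it ran from nt 102 to 8267 with 1004 tags, 122.9 tags per kb and the same fold. On ENST00000333896 it was shorter, from nt 44 to 7700, and held 946 tags at 123.5 tags per kb, but its fold was 41.68, 1.53 times that of ENST00000356805. Tags of shared exons can be counted for each transcript, so these are not independent measurements. The summit lay towards the 3' end in all 3, at nt 6656, 6630 and 6341. The fold of SPTBN1 thus depends on the transcript, while its density barely does.

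PLEC, the intermediate filament linker, had 8 peaks, the largest number among the 1658 genes. On ENST00000322810 they lay between nt 1105 and nt 13442 and held 453 tags (412.2 to 496.7) at 50.93 tags per kb, the lowest density of the 7. The peak at nt 4119 to 5228 was the densest, with 104 tags, 93.69 tags per kb (76.55 to 113.5) and a fold of 49.2. Its interval lay above those of the other 7 peaks, which ranged from 25.86 to 58.37 tags per kb. The sparsest was its neighbour at nt 5247 to 6058, which began 18 nt downstream and had 21 tags at a fold of 8.10. Density therefore dropped 3.62-fold between adjacent peaks. The folds of the remaining peaks were 22.57, 12.73, 19.68, 12.16, 24.31 and 5.77 in 5' to 3' order. The widest gaps without a listed peak measured 1044, 925 and 855 nt and began after nt 3074, 9672 and 6058.

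Plectin is made from several alternative first exons, and 10 of its transcripts were listed. On 8 of them the lengths, tags and folds of all 8 peaks were identical, and ENST00000322810 stands for these by its lowest identifier. Over the 9 transcripts with 8 peaks, the first peak began between nt 502 and nt 1105, and all peak ends shifted by a constant number of nt from one transcript to the next. Relative to ENST00000322810 the shift of the first start was 452 to 603 nt. On ENST00000527096 the first peak was 12 nt shorter and had 59 tags, against 63 elsewhere. The remaining transcript, ENST00000528025, carried the first peak alone. The tags hence do not tell the 8 plectin transcripts with identical peaks apart.

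**Figure D2:**
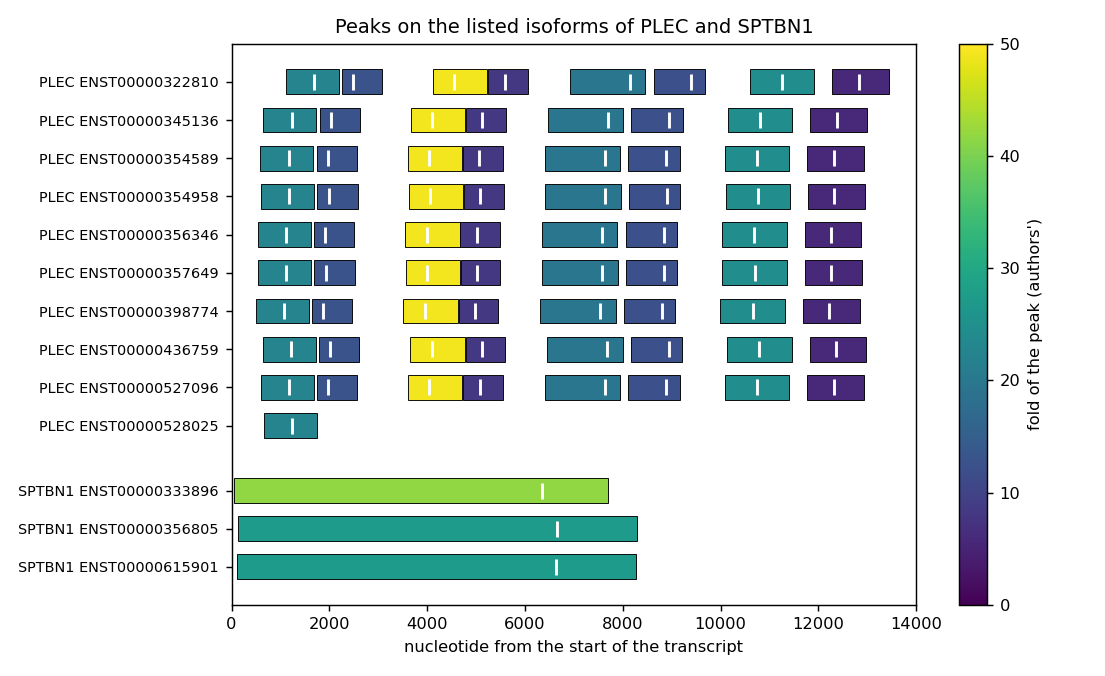
Peaks of the listed PLEC and SPTBN1 transcripts in nt from the transcript start (horizontal axis), 1 row per transcript, coloured by the authors' fold; white ticks mark summits. The PLEC peaks are identical apart from a shift in 8 rows, a further row differs in its first peak (59 tags against 63), and the shorter SPTBN1 transcript has the higher fold, 41.68 against 27.32 in the rows below it.

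On the microtubule side, MAP1B had the highest fold in the list, 89.72. Its peak ran from nt 249 to 9728 of ENST00000296755, with 1313 tags (1243 to 1386) at 138.5 tags per kb (131.1 to 146.2). The summit was at nt 2310, towards the 5' end of the peak. MAP1B and MYH9 were in reversed order by the measures: the fold of MAP1B was 3.07 times that of MYH9, while the tag density of MYH9 was 1.59 times that of MAP1B.

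The 2 peaks of DYNC1H1 were close in density, while the spread of tags within each peak is not given. The peak at nt 231 to 5883 of ENST00000360184 held 353 tags at 62.44 tags per kb (56.10 to 69.31), and that at nt 5902 to 12213 held 436 at 69.07 (62.74 to 75.87). These intervals overlap, and both peaks had a fold of 28.36. Their summits lay at nt 3912 and 6442. With 789 tags in all, the gene ranked 12 of 1658 by tags and 4 by covered length.

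AHNAK, the scaffold, had the longest covered stretch of any gene, 18378 nt. Nearly all of it was the second peak, nt 1500 to 18401 of ENST00000378024, with 1250 tags, 73.96 tags per kb (69.91 to 78.17) and a fold of 27.78. The first peak, nt 1 to 1476, held 45 tags at 30.49 tags per kb (22.24 to 40.80) and a fold of 8.10. The density of the second was 2.43 times that of the first, and their intervals did not overlap. The summit of the long peak lay near its 5' end, at nt 2827.

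Summits thus had no common place. Counted from nt 1 to the end of the last peak, the summit of the highest peak lay at 10.1% in TLN1, 15.4% in AHNAK, 23.7% in MAP1B and 33.9% in PLEC. It lay at 59.6% in MYH9 and 80.3% in SPTBN1, and the equal summits of DYNC1H1 lay at 32.0% and 52.7%. The authors' region labels conflicted with these places: the first peaks of TLN1 and AHNAK were labelled 3' untranslated and coding although coding-only peaks followed downstream, as was the first peak of 7 PLEC transcripts. The labels of untranslated regions were therefore not used.

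The authors' fold took mostly stepwise values: in 70.1% of the 2440 peaks of the represented transcripts it was a whole multiple of 0.5788, to within 0.0051. Among the 19 member peaks 13 were such multiples. MAP1B stood at 155 steps, the first TLN1 peak at 111, the densest PLEC peak at 85, both DYNC1H1 peaks at 49 and the long AHNAK peak at 48. The folds of MYH9 and of SPTBN1 on ENST00000356805 were not multiples, whereas that of SPTBN1 on ENST00000333896 was, at 72. The other 4 exceptions were the 3 weak TLN1 peaks and the last PLEC peak. On the represented transcripts MYH9 and SPTBN1 had folds of 29.19 and 27.32 at 219.7 and 128.9 tags per kb, where MAP1B and the first TLN1 peak, at 138.5 and 155.3 tags per kb, had 89.72 and 64.25. On ENST00000333896, SPTBN1 had 41.68 at 123.5 tags per kb. What the step stands for was not stated either.

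**Figure D3:**
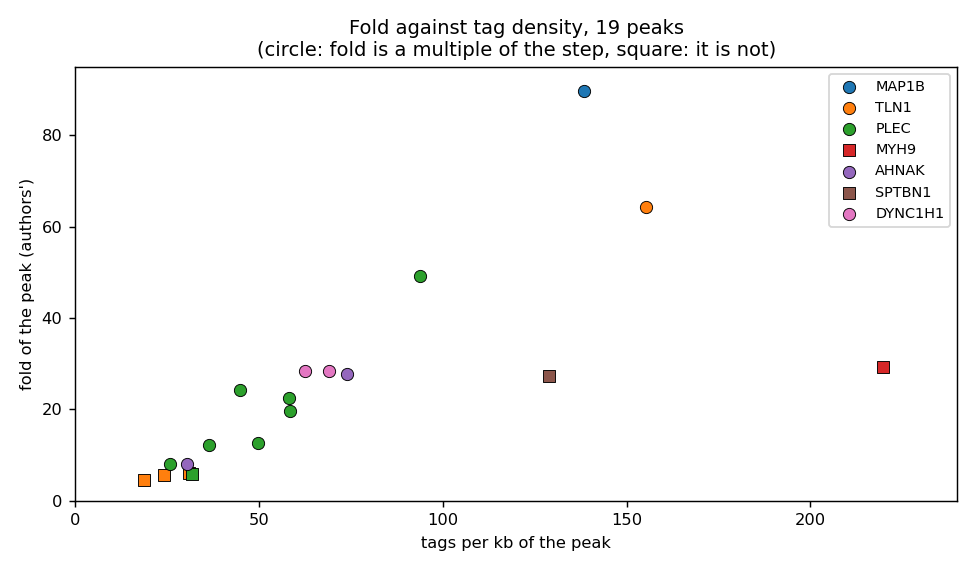
The authors' fold (vertical axis) against tags per kb (horizontal axis) for the 19 peaks, coloured by gene; circles are folds on multiples of 0.5788, squares are not. MYH9 at 219.7 and SPTBN1 at 128.9 tags per kb, both squares, lie under 30-fold, below MAP1B at 89.72 and the first TLN1 peak at 64.25.

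Set against the rest, all 7 genes had a highest fold of at least 20, and 6.45% of all 1658 symbols did; as the genes were picked for large values, nothing is read from this. Their median highest fold was 29.19, against 7.52 for the other 1651 genes. Genes with more nucleotides in peaks also had more tags and higher folds. Across the 1658 genes, covered length and tags had a Spearman rank correlation of 0.923, covered length and highest fold one of 0.536, and covered length and tags per kb one of 0.418, all within 1 library and with tags and length taken from the same peaks. Closer to the 7 in covered length were the 118 other genes that had at least 4114 nt in peaks, the covered length of TLN1, the shortest of the 7. The median fold was 29.19 in the 7 genes, against 17.65 in the 118, whose quartiles were 12.73 and 24.89. The median density was 70.46 tags per kb in the 7 genes, against 42.13 in the 118. Of the 118, 25 reached the lowest fold of the 7, 27.32, and 40 reached their lowest density, 50.93 tags per kb. Some of the 118 are overlapping or near-identical genes listed under several symbols. Taking genes of like length does not undo the picking of the 7 for large values, so nothing is read from these differences.

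The 5 other genes with the longest covered stretch were NBPF20 (15880 nt), DST (13121), MACF1 (11891), NBPF19 (10368) and MKI67 (9745). The NBPF genes are near-identical copies, so their tags may be shared. DST (dystonin) and MACF1, plakins like plectin, had 536 and 449 tags at 40.85 and 37.76 tags per kb of peak, and folds of 19.68 and 17.94. MKI67, the proliferation marker Ki-67, had the same fold as DYNC1H1, 28.36, with 833 tags at 85.48 tags per kb.

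**Figure D4:**
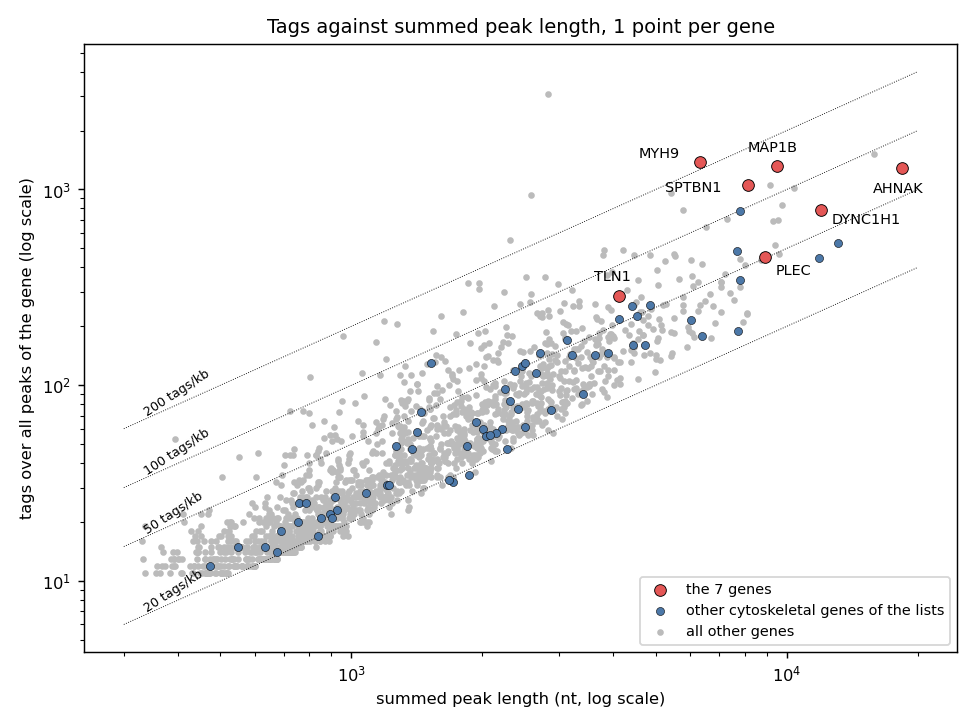
Tags (vertical axis, log scale) against summed peak length (horizontal axis, log scale) for the 1658 genes, with the 7 genes in red and other listed cytoskeletal genes in blue; dotted lines are equal tags per kb. The 7 genes sit at the long end, with MYH9 above the line of 200 tags per kb and PLEC on that of 50.

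The wider cytoskeleton was read through 10 lists with 187 genes. Of the 180 that are not among the 7 genes, 62 had a peak, 34.4% (27.5 to 41.9%), while 8.11% of the 20056 protein-coding genes of the RefSeq table did. The lists were chosen with earlier results of these data known, and the 20056 genes were not matched to them for expression or length. Nothing is therefore read from the difference between these shares. The median fold of the 62 was 8.64 and their median density 31.6 tags per kb, close to the 7.52 and 29.7 of all genes outside the 7. In 4 of them the fold was at least 20, and in 0 did it reach the 27.32 of SPTBN1. At a score of at least 100, 42 of the 69 listed genes with a peak, the 7 included, were left.

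Among talin's partners at adhesions, 3 of 19 had a peak: VCL (vinculin, which binds talin under tension; fold 8.85, 90 tags), LIMS1 (8.10, 23 tags) and FERMT2 (kindlin-2, the co-activator of integrins; 6.80, 96 tags). TLN2, the second talin, had none listed. Of the actin crosslinkers 9 of 17 did, among them CALD1 (caldesmon; 16.79, 73 tags) and SVIL (supervillin; 15.63, 160 tags).

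Of the other myosins 9 of 18 had a peak. MYO10, the filopodial myosin, stood at 23.15 with 161 tags, MYO18A at 17.94 with 76 and MYO5A at 9.84 with 57. MYH10, the heavy chain of nonmuscle myosin IIB and a close relative of MYH9, had 61 tags in 2 peaks at a fold of 8.68. No peak was listed for MYH14 or for the light chains MYL6, MYL9, MYL12A and MYL12B.

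Of the other dynein and dynactin genes 6 of 15 had a peak, led by the cargo adaptor BICD2 (11.58, 49 tags), the dynactin subunit DCTN1 (8.59, 143 tags) and the light chain DYNLL2 (6.47, 27 tags). Of the chains that build cytoplasmic dynein with DYNC1H1, DYNC1I2, DYNC1LI1, DYNC1LI2, DYNLL1 and DYNLT1 had no listed peak. Of the kinesins 13 of 31 had one, with the kinetochore motor CENPE (20.26, 225 tags), KIF1B (12.73, 115 tags) and KIF5B (11.05, 171 tags) highest.

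In the membrane skeleton 5 of 17 other genes had a peak. SPTAN1, the alpha-II spectrin that pairs with SPTBN1, had 344 tags over 7807 nt at 44.06 tags per kb and a fold of 16.79, so the partner was covered over a like length at a lower density than the 128.9 tags per kb of SPTBN1. EPB41L2, a membrane skeleton protein, stood at 19.71 with 146 tags, and the adducin ADD2 at 9.50 with 56.

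Among the cytolinkers 7 of the 11 others had a peak, led by DST, MACF1 and DSP. DSP (desmoplakin), which anchors keratin at desmosomes, stood at 15.05 with 215 tags. AHNAK2, the paralog of AHNAK, had 126 tags over 2464 nt, in 2 peaks that lay between nt 503 and nt 17851. Its fold of 25.47 was close to the 27.78 of AHNAK, with far fewer nt in peaks. The AHNAK binding partners S100A10 and ANXA2 had no listed peak.

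Of the other microtubule-associated proteins 7 of 24 had a peak, led by CLIP1, a plus-end tracking protein (23.73, 218 tags), CKAP5, a microtubule polymerase (19.68, 257 tags), and CAMSAP2, which protects minus ends (16.79, 143 tags). MAP1A and MAP1S, the relatives of MAP1B, had none listed. Of the subunits of the filaments themselves 2 of 23 had a peak, the lamins LMNB1 (8.46, 58 tags) and LMNB2 (4.96, 65 tags), and none was listed for VIM, ACTB or the tubulins of the list. The file holds only regions past the authors' threshold, so an unlisted gene is not shown to be absent from the IP.

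**Figure D5:**
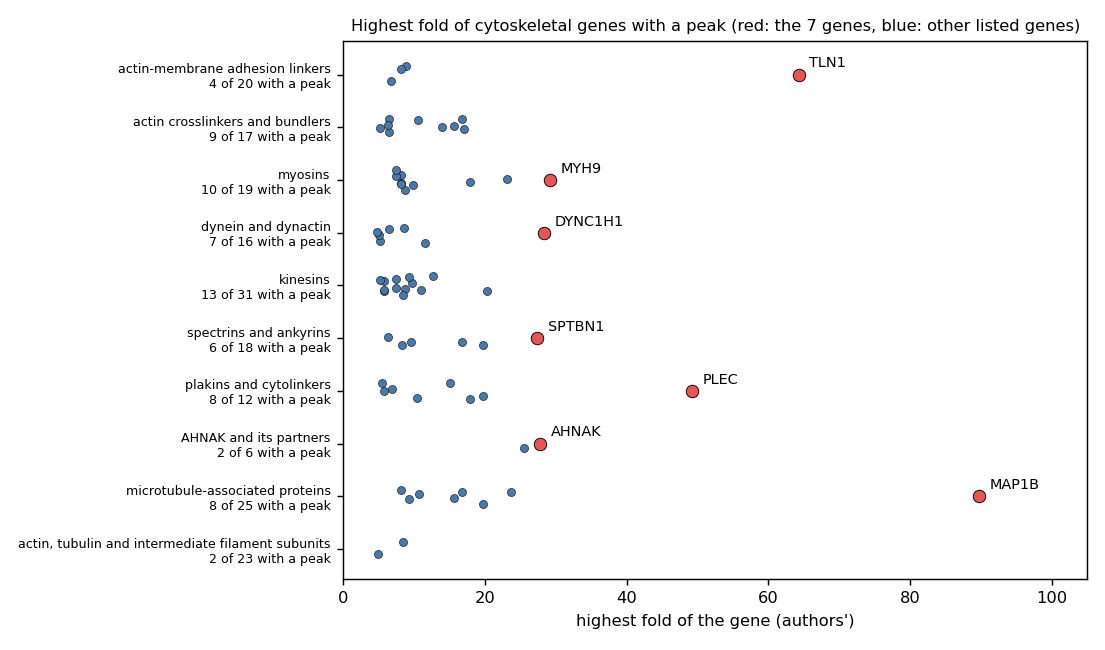
Highest fold (horizontal axis) of each listed cytoskeletal gene with a peak, by list, with the 7 genes in red and the others in blue; vertical scatter within a list has no meaning. In each list that holds a red point it lies right of every blue one, which follows from how the 7 genes were picked, and the nearest pair is AHNAK at 27.78 and AHNAK2 at 25.47.

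In the Gene Ontology terms the authors joined to the transcripts, all 7 genes carried the component term cytoskeleton, as did 18.5% of the other genes. Structural molecule activity was carried by 5 of 7, against 3.63%. Both follow from the choice of the 7 as cytoskeletal proteins. Among many further terms, RNA binding was assigned to 5 of 7, against 20.2%, extracellular region to 6 of 7, against 17.3%, and plasma membrane to 6 of 7, against 20.7%. Nucleus went the other way, with 3 of 7 against 58.9%. No term was tested, and these were named by no set rule, so nothing is read from their shares. The joined KEGG pathways linked TLN1 to HTLV-I infection, Rap1 signalling, focal adhesion and platelet activation. They linked MYH9 to regulation of the actin cytoskeleton, tight junction and Salmonella infection. For DYNC1H1 they gave phagosome, Salmonella infection and vasopressin-regulated water reabsorption. The other 4 had no KEGG pathway in the file.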

How the data were processed

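The file analysed is a list of 6195 peaks on 4439 Ensembl transcripts, made by the authors from the IP library. Per the file headers, each row gives a region label, a start, end, length and summit along the transcript, a whole tag count, an unnamed column and a fold enrichment. The tag count is the authors' deposited number of tags per peak, not normalized. The fold is the ratio the authors' peak caller deposited, and the unnamed column is called the score, whose deposited values begin at 30. The submitters' processing notes name hg18; which aligner, caller, annotation and background library were used was not stated there. The summit never exceeded the length, so it was read as an offset from the peak start.

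For each symbol the transcript with the highest sum of tags was kept, ties going to the lowest identifier. Tags per kb are tags over summed peak length. The library's depth is unknown. The members and gene lists were chosen with earlier results of these data known. Named besides the 7 genes were up to 3 genes per list by fold and the 5 with the longest covered stretch; relatives and binding partners without a peak, and MYH10, SPTAN1, VIM and ACTB, were named for their role. Values of 1 gene that this rule names are not reported here. Names and gene types came from RefSeq, GRCh38.p14. The step of the fold was the value between 0.5 and 0.7 with the most peaks on its multiples. Alternatives were another transcript choice, score minimums of 50 and 100, a 4-fold minimum, density over the span, a fold minimum of 10, and symbols exactly as listed. Procedures were tested on simulated data. Python 3.11.15, pandas 2.3.3 and scipy 1.17.1 were used.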

Additional observations from a re-analysis of the deposited data

How the results depend on the processing

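No paired analysis was made, because IP and input are 1 library each and only the peak list of the IP was used. Whether its folds are relative to the input was not stated. The number of member peaks, their summed tags and the 7 genes past the fold minimum stayed within 1.5 times, or for tags within the counting interval, under each alternative run for them. The median highest fold of the 7 genes became 41.68 with the transcript of highest fold, since SPTBN1 then rests on ENST00000333896. Their median density became 128.9 tags per kb at a score of at least 50 and 128.9 at a score of at least 100, since TLN1 then keeps its first peak alone (155.3 tags per kb). The listed cytoskeletal genes with a peak fell to 42 at a score of at least 100, as fewer peaks enter. Over the span of its peaks, TLN1 had 41.92 and PLEC 36.72 tags per kb. Of 119 values of single genes under alternatives 107 stayed and 12 moved. Many of the 107 could not move. The lowest fold of any member peak was 4.62, so the 4-fold minimum removed none, and genes with 1 listed transcript had no other to choose. The count is therefore not a measure of stability. Peaks of 12 to 46 tags, as in TLN1, limit the precision.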
